A study of Mus musculus with 4 samples.

Results

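Ribosomal protein pseudogenes are copies of ribosomal protein genes scattered over the mouse genome, and 211 of the 46406 rows in the deposited table were such copies. They were chosen by name alone, as rows whose symbol is that of a ribosomal protein gene followed by -ps and a number, so no measured value entered the choice. The libraries were made by ATAC-seq, in which the Tn5 transposase cuts and tags open DNA, from J1 mouse embryonic stem cells grown without feeder cells. The control libraries, labelled wild type, number 2, as do those of cells that overexpress the zinc finger protein Zscan4 (Zscan4 OE). Zscan4 is made briefly in 2-cell embryos and in few cells of a stem cell culture. All 4 libraries are labelled as traditional culture with the passage label PN+8. How Zscan4 was overexpressed, and whether the replicates came from separate cultures, is not stated in the labels, so any p-value measures only the spread between these libraries.

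The ribosome is built from a large and a small subunit, each made of ribosomal RNA and many ribosomal proteins. Every dividing cell makes these proteins in quantity, and embryonic stem cells are no exception. A processed pseudogene arises when a messenger RNA is reverse-transcribed and inserted back into the genome, which leaves a copy without introns and without the promoter of its parent gene. Ribosomal protein genes are among the most frequent parents of such copies in mammals.

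The start sites of the parents show what a processed copy leaves behind, and 2 are printed for that reason: that of Rpl31, the large-subunit gene with the most copies in the table, and that of Rps12, the small-subunit gene whose copy Rps12-ps26 had the highest level. Each window runs from 250 bases before to 50 after the annotated start, 5′ to 3′ (RefSeq, GRCm38.p6), with CpG dinucleotides in capitals. The Rpl31 window is chr1:39367601-39367900 on the plus strand and the Rps12 window is chr10:23787160-23787459 on the minus strand.

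Rpl31: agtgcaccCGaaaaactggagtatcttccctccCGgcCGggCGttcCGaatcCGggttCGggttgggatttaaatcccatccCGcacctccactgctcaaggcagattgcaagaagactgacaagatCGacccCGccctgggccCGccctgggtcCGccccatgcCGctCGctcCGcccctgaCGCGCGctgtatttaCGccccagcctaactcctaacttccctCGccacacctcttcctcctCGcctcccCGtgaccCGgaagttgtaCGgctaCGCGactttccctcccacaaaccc

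Rps12: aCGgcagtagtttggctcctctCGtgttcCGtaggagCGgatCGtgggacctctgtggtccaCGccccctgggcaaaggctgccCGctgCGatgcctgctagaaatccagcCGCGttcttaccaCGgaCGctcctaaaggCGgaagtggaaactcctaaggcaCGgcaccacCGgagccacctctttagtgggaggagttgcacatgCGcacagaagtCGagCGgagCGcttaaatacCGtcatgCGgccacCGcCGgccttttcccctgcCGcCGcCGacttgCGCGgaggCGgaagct

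In each window all but the last 50 bases lie before the annotated start and so outside the annotated messenger RNA. The Rpl31 window held 26 CpGs and the Rps12 window 29. Over 46 such windows of 38 parent genes the median was 22 CpGs, with a range from 8 to 39. The median was 7 over all 32851 windows listed, of 27025 gene symbols. The motif CCGGAAG, one of the sequences that ETS-family factors can bind, was present on either strand in 14 of the 46 parent windows (30.4%). It was present in 8.86% of all windows. Only this exact string was searched, so windows with other ETS-family sequences are not counted. The Rpl31 window held it, within the last 50 bases and so after the annotated start, and the Rps12 window did not. A match is a description of the letters only. The RefSeq table matched 0 of the 211 copies with a window, so no copy sequence is shown.

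The libraries were shallow. Control 1 had a total of 1061428 reads and control 2 of 2903602. Zscan4 OE 1 had 3605774 and Zscan4 OE 2 had 4899494. Of these totals the rows of the table held 9.38% to 12.8%. The deposited RPKM values (reads per kilobase of feature, scaled to a fixed library total) had been divided by totals that changed from row to row, so reads were recovered and each value was rescaled to its own library. RPKM below means this rescaled value. A list of 10 embryonic stem cell marker genes had reads for every gene and a sum of 35.5 to 72.7 RPM (reads scaled to 1000000 in the library) in the 4 libraries, and 8 fibroblast genes had 50.8 to 72.9 RPM. These sums are not corrected for gene length. Mean RPKM of the stem cell markers was 1.63 and 1.22 for the control libraries, against 3.12 and 1.73 for the Zscan4 OE ones. For the fibroblast genes it was 0.985 and 1.22 for the control libraries, against 1.33 and 1.03 for the Zscan4 OE ones. Dppa5a of the stem cell markers and S100a4 of the fibroblast genes were at 0 in at least 1 library. The 8 rows of the Zscan4 cluster held 4 reads in all. Reads in these rows measure open DNA and not expression, so the overexpression could not be checked here. A count of 0 allows up to 3 reads (one-sided 95% limit, counting error only), which is 2.83 and 1.03 RPM for controls 1 and 2, then 0.832 and 0.612 for Zscan4 OE 1 and 2.

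The copies held 519 reads in all 4 libraries together, a mean RPKM of 0.405 per copy. No read was found in 44 of the 211 copies (20.9%). Another 74 had a single read, 62 had 2 to 4, 23 had 5 to 9 and 8 had 10 or more. A read in every library was found in 8 copies. The 10 copies with the most reads held 29.3% of all reads. These read numbers are the smallest that give the deposited values, and the true numbers may be multiples of them. Lists of 4 values below are in the order control 1, control 2, Zscan4 OE 1, Zscan4 OE 2.

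The copies come from 52 parent symbols, of which 51 had a row of their own. Rpl48, the parent symbol of a copy without reads, had none. The large subunit supplied 135 copies with 322 reads and the small subunit 76 copies with 197 reads. Mean RPKM of large-subunit copies was 0.348 and 0.229 for the control libraries, against 0.536 and 0.355 for the Zscan4 OE ones. Small-subunit copies had 0.432 and 0.506 for the control libraries, against 0.582 and 0.376 for the Zscan4 OE ones. The small-subunit mean was above the large-subunit mean in all 4 libraries. The group means were 0.469 ± 0.0518 and 0.288 ± 0.0841 over the controls, and 0.479 ± 0.146 and 0.446 ± 0.128 over Zscan4 OE, small subunit first (SD, n = 2). The gap was thus above the spread between replicates in controls and below it in Zscan4 OE, and it was not tested.

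RefSeq positions (GRCm38.p6) were matched for 205 copies, on 20 chromosomes. The X chromosome carried the most, with 19, followed by chromosome 11 with 16 and chromosome 3 with 15. Of the copies whose parent also had a position, 195 lay on another chromosome than the parent and 9 on the same one. The recovered feature length had a median of 450 bases, and in 162 copies with reads and a position it was 85.9% of the RefSeq span at the median. Some copies of one parent shared a length, and others did not. For Rpl21, 5 of 8 copies with reads were given 483 bases, though 4 of these 5 allowed 2 rotations and the shortest length was kept. For Rpl35a, 3 of 3 were 333 bases, while the 9 Rps2 copies with reads had no length in common.

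The 51 parent genes, for reference, had levels per length several times those of the copies. Mean parent RPKM was 2.7 and 1.4 for the control libraries, against 3.31 and 1.83 for the Zscan4 OE ones. The 210 copies with a parent row had means of 0.38 and 0.33 for the control libraries, against 0.556 and 0.364 for the Zscan4 OE ones. The parents were higher 7.11-, 4.23-, 5.96- and 5.04-fold in the 4 libraries in that order. With 4 of 4 libraries in one direction, an exact permutation test that exchanges the 2 sets within each library gave a two-sided p of 0.125, the smallest it allows. This test was not in the plan, which set the comparison as a description. With all 4 libraries in one direction it could give no other p, so it adds no support. Over the mean of 4 libraries 205 of 210 copies (97.6%) were below their own parent. Within single libraries 185, 191, 202 and 199 copies were below it. Of the 31 copies with 5 or more reads, a subset taken after seeing the data, 26 (83.9%) were below. Parents with no read in a library were few, since 49 of 51 had reads in all 4.

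**Figure D1:**
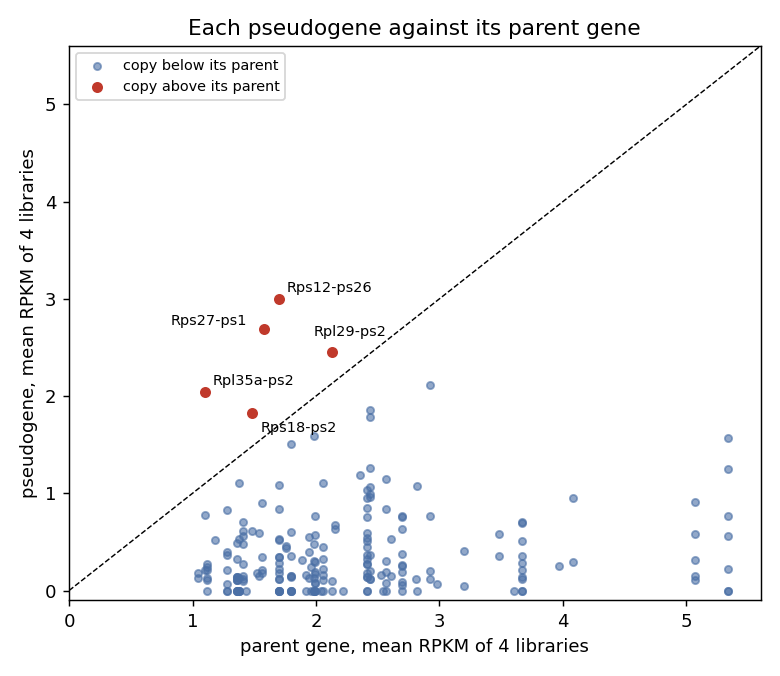
Mean RPKM of each pseudogene (y axis) against that of its parent gene (x axis), over 4 libraries; each point is a copy, red points lie above the dashed line of equal levels. Of 210 copies 205 lie below the line, and the 5 above it are named.

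The 5 copies above their parents were Rps12-ps26, Rps27-ps1, Rpl29-ps2, Rpl35a-ps2 and Rps18-ps2. Rps27-ps1 (chr1:63073744-63074066) had 7.66 and 0 RPKM for the control libraries, against 2.25 and 0.83 for the Zscan4 OE ones, from 2, 0, 2 and 1 reads. Rpl35a-ps2 (chr1:181241944-181242382) had 5.66, 0, 2.5 and 0 RPKM, from 2, 0, 3 and 0 reads. Rps18-ps2 (chr4:8941259-8941695) had 4.73, 0.865, 0.697 and 1.03 RPKM, from 2, 1, 1 and 2 reads. In these 3 short rows the highest value was in control 1, the shallowest library, where a single read weighs most, and the groups overlapped. In 3 of the 5 the level thus rested on 5 or 6 reads. Parents and copies share sequence, and how reads that match several places were counted is not stated in the labels, so the split of reads between a copy and its parent is uncertain.

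Other pseudogenes offer a second reference. The 2439 other RefSeq pseudogenes of like span, 417 to 950 bases, had mean RPKM of 0.587 and 0.506 for the control libraries, against 0.772 and 0.515 for the Zscan4 OE ones. The copies had 0.378 and 0.328 for the control libraries, against 0.553 and 0.362 for the Zscan4 OE ones. The other pseudogenes were thus higher 1.55-, 1.54-, 1.4- and 1.42-fold in the 4 libraries in that order (exact permutation test within libraries, two-sided p = 0.125, the smallest it allows). This test was not planned either, and adds no support for the same reason. Of these other pseudogenes 10.8% had no read in any library, against 20.9% of the copies. Their median recovered length was 587 bases, against 450 for the copies, and the part of length in this gap was not tested. The highest of the other pseudogenes reached 220 RPKM, and the medians over rows were 0.37 for them and 0.217 for the copies.

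Most copies were far from the starts listed for other genes. The median distance from a copy to the nearest listed start of another gene was 27808 bases, over 199 copies with a distance. The list was incomplete, with starts for 38 of the 51 parent genes and none on chromosome 18, which carried 6 copies. Distances are thus upper limits, and a copy may belong to a nearer class. Only 4 copies lay within 1 kb of a listed start, and they held 2 reads in all. Rps13-ps4, a copy of the small-subunit gene Rps13 inside the transcription factor subunit gene Taf1c and next to its start, had 1 read. The 47 copies at 1 to 10 kb had a mean RPKM of 0.399 and the 148 farther away 0.388. The 47 copies inside protein-coding genes had 0.345 and 0.443 for the control libraries, against 0.756 and 0.262 for the Zscan4 OE ones. The 158 outside them had 0.402 and 0.259 for the control libraries, against 0.442 and 0.368 for the Zscan4 OE ones, so neither class was higher in all libraries. The 19 copies on the X chromosome had 0.144 and 0.26 for the control libraries, against 0.352 and 0.195 for the Zscan4 OE ones. The 186 on autosomes had 0.414 and 0.305 for the control libraries, against 0.531 and 0.359 for the Zscan4 OE ones. The mean of the X copies was lower in all 4 libraries, from 27 reads in all, and this was not tested. The median over copies went the other way, at 0.242 on the X chromosome and 0.211 on autosomes. The share of copies without a read was 21.1% and 21%.

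The study's title links Zscan4 to chromatin accessibility, and the design sets Zscan4 OE against control. The copies had summed reads of 43.3 RPM in control 1 (exact Poisson 95% interval 31.7 to 57.8, 46 reads) and 35.1 RPM for control 2 (28.6 to 42.6, 102 reads). Zscan4 OE 1 gave 56 RPM (48.6 to 64.3, 202 reads), and Zscan4 OE 2 gave 34.5 (29.5 to 40.1, 169 reads). Zscan4 OE 2 was the lowest library and Zscan4 OE 1 the highest, so the groups overlapped. In such bulk libraries fewer cells with a site open and less opening per cell cannot be told apart. Controls averaged 39.2 ± 5.8 RPM, Zscan4 OE libraries 45.3 ± 15.2 (SD, n = 2 each), a ratio of 1.15. An exact two-sided permutation test gave p = 1, where 2 libraries against 2 allow no p below 0.333. Without Zscan4 OE 1 the ratio was 0.879, so its direction rested on that library. Within replicate numbers the ratio of Zscan4 OE to control was 1.29 for replicate 1 and 0.982 for replicate 2.

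**Figure D2:**
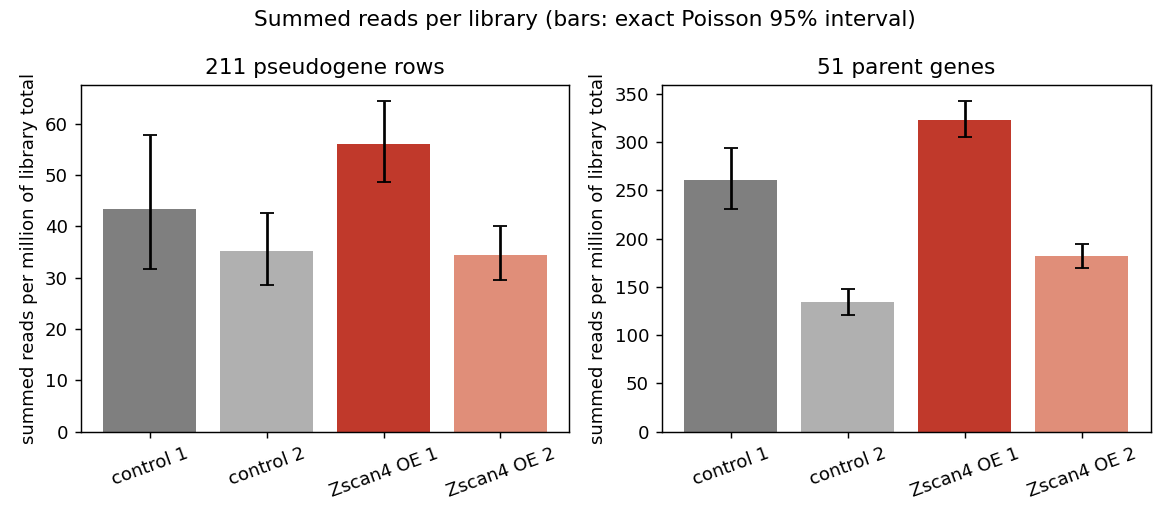
Summed RPM (y axis) in the 4 libraries, for the 211 pseudogene rows (left) and their 51 parent genes (right); error bars are exact Poisson 95% intervals for counting error. Replicate 1 is above replicate 2 in each group and in both panels, and the control and Zscan4 OE bars overlap in range.

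The parents varied between libraries more than the copies did. Their summed reads were 261 and 134 RPM for the control libraries, against 323 and 182 for the Zscan4 OE ones, with means of 197 ± 90 and 252 ± 99.5 (SD, n = 2). Replicate 1 exceeded replicate 2 by 1.95-fold in controls and 1.77-fold in Zscan4 OE for parents, and by 1.23-fold and 1.62-fold for copies. Per read in the table the copies turned in the controls, with 0.0351% of table reads in control 1 and 0.0374% in control 2, and stayed higher in Zscan4 OE 1 (0.0438%) than in Zscan4 OE 2 (0.0347%). The share of library reads falling in the table was also higher in replicate 1, at 12.4% and 12.8%, than in replicate 2, at 9.38% and 9.93%. Its part in these differences was not tested.

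No copy passed the test for a difference between groups. Values were compared as log2(RPKM + 0.1) with limma on every row with a mean RPKM of at least 0.1, with Benjamini-Hochberg adjustment over all 42989 rows tested. Of the 211 copies 159 passed this filter on low values. Of the other 52, 44 had no read. At an adjusted p under 0.05 limma called 0 copies, and 0 of all rows (0% of those tested). With no adjustment limma put 13 of 159 copies higher and 6 lower at p under 0.05, or 8.18% and 3.77%, against 5.09% and 1.33% of all rows. All 13 had no read in either control, and all of the 6 but Rpl19-ps3 had none in either Zscan4 OE library. A group at 0 shows no spread, and such copies passed the filter only through the other group. These shares are thus no support for a difference. The groups did not overlap in 22 copies with higher values in Zscan4 OE (13.8%, against 19.6% of all rows) and in 8 with lower values (5.03%, against 10.1%). Of the 22, 21 had no read in either control, and of the 8, 5 had none in either Zscan4 OE library. Without Zscan4 OE 1 limma called 52 copies (32.7%, against 10.6% of all rows) and without Zscan4 OE 2 it called 47 (29.6%, against 9.05%). All of these were higher and had no read in either control, and the lone Zscan4 OE library is then assumed to vary like the controls.

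Among the 79 ribosomal protein genes of a fixed list, all with a row and all tested, limma called 0 higher and 0 lower as well. Their log2 difference was positive in 65 (82.3%, against 62% of all rows) and negative in 14, and the values of both Zscan4 OE libraries were above both controls in 23 (29.1%, against 19.6% of all rows) and below both in 2 (2.53%, against 10.1%).

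More copies had a positive than a negative difference, as had all rows. The median log2 difference, Zscan4 OE minus control, was 1.25 over the 159 copies and 0.28 over all rows. Without Zscan4 OE 1 the median of copies relative to all rows, 0.98 with all 4 libraries, was −0.05. The difference was positive in 108 copies (67.9%) and in 62% of all rows. The Zscan4 OE libraries held 68.2% of the summed library totals, 71.5% of the reads in copies and 70.1% of the reads in all rows. Grouped by reads per row, copies and all rows had like medians at low counts. With 1 read the medians were 1.31 for 66 copies and 1.52 for all rows, with 2 to 4 reads they were 0.41 and 0.53, and with 5 to 9 reads 0.75 and 0.77. With 10 or more reads the 8 copies had a median of 2.07 and all rows 0.16. Of these 8, 7 are described one by one below, and the median over 8 chosen by their reads is no test.

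**Figure D3:**
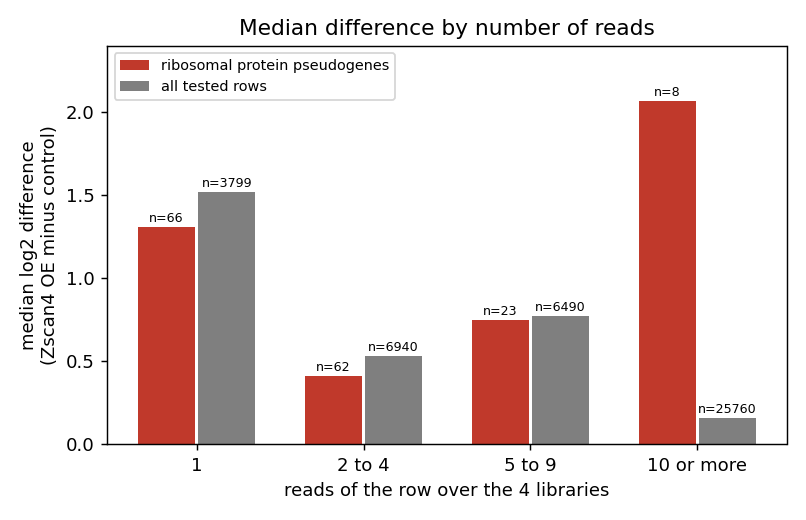
Median log2 difference (Zscan4 OE minus control, y axis) of tested rows grouped by their reads over the 4 libraries (x axis), for pseudogenes in red and all tested rows in grey, with the number of rows above each bar. The 2 sets are close up to 9 reads, and differ in the last class, which holds 8 pseudogenes.

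Rpl29-ps2 had the most reads of any copy. It is a copy of Rpl29, a large-subunit gene, on chromosome 13 (chr13:4614127-4614793). Its values were 2.85 and 1.56 RPKM for controls 1 and 2, against 3.98 and 1.39 for Zscan4 OE 1 and 2, from 4, 6, 19 and 9 reads. Zscan4 OE 1 was the highest and Zscan4 OE 2 the lowest, so the groups overlapped (log2 difference 0.16, SE 0.69, limma adjusted p = 0.988). Its parent Rpl29 had 3.35 and 1.84 RPKM for the control libraries, against 1.72 and 1.63 for the Zscan4 OE ones.

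Rpl19-ps3 (chr14:49112131-49112830), a copy of the large-subunit gene Rpl19, came next and had its higher values in the controls. It had 1.64 and 0.96 RPKM for the control libraries, against 0.386 and 0.355 for the Zscan4 OE ones, from 5, 8, 4 and 5 reads. Both controls were above both Zscan4 OE libraries, and the log2 difference of −1.53 (SE 0.57) did not pass (limma adjusted p = 0.775). The parent Rpl19 had 0.922 and 1.68 RPKM for the control libraries, against 3.8 and 0.399 for the Zscan4 OE ones, which overlapped. The feature counted for Rpl19-ps3 was 2871 bases, 4.1 times its RefSeq span, and that of Rpl29-ps2 was 1323 bases, 1.98 times its span. The features counted thus ran beyond the copies as RefSeq places them.

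Rps12-ps26, a copy of the small-subunit gene Rps12, had the highest mean level of any copy and the largest statistic. It had no read in either control, with 10 in Zscan4 OE 1 and 6 in Zscan4 OE 2, or 8.33 and 3.68 RPKM. The groups did not overlap, and the log2 difference of 5.82 (SE 0.66) did not pass (limma adjusted p = 0.156, rank 131 of all rows by p). Its parent Rps12 had 1.39 and 0.34 RPKM for the control libraries, against 3.56 and 1.51 for the Zscan4 OE ones, with 3, 2, 26 and 15 reads. The groups thus did not overlap in the parent either, in the same direction, and copy and parent share sequence. No RefSeq position was matched for this copy. With both controls at 0 the size of the log2 difference is set by the pseudocount, at 2.72 with a pseudocount of 1 and 9.12 with 0.01, and is no measure of fold.

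Rpl13-ps2 (chr13:58756511-58757204), a copy of the large-subunit gene Rpl13, had the same pattern with fewer reads. It had no read in either control, with 5 in Zscan4 OE 1 and 7 in Zscan4 OE 2, or 2.26 and 2.33 RPKM. The log2 difference was 4.58 (SE 0.67, limma adjusted p = 0.166), and it was 1.72 with a pseudocount of 1 and 7.85 with 0.01. Its parent Rpl13 had 2.54 and 1.33 RPKM for the control libraries, against 4.06 and 2.36 for the Zscan4 OE ones, which overlapped.

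In 3 of the copies described here nearly all reads came from a single library. The class was set after seeing the data, as 8 or more reads in one library and at most 1 in each other. Rpl26-ps2 (chr12:57632538-57633050), a copy of a large-subunit gene inside Ttc6, had 0, 1, 12 and 0 reads in the 4 libraries, or 7.65 RPKM in Zscan4 OE 1. Rpsa-ps3 (chr11:22386292-22388198), a copy of the gene for the small-subunit protein also known as the laminin receptor, had 0, 0, 9 and 1 reads. Rpl19-ps9 had 0, 1, 8 and 0 reads. The high library was Zscan4 OE 1 in these 3, but in 2 of them Zscan4 OE 2 had no read, so replicates of one group differed by as much as the groups. Whether duplicate reads had been removed is not stated in the labels.

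Rpl7a-ps1 (chr12:64876786-64877632), another copy with 10 or more reads, had 0, 1, 6 and 3 reads in the 4 libraries. Its values were 0 and 0.434 RPKM for the control libraries, against 2.1 and 0.772 for the Zscan4 OE ones, which did not overlap (log2 difference 2.58, SE 1.11, limma adjusted p = 0.869). Rps19-ps5 (chr15:37867894-37868527), among the highest levels, had 4.68, 0, 2.75 and 0 RPKM from 2, 0, 4 and 0 reads. It had reads in both replicates 1 and in neither replicate 2.

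**Figure D4:**
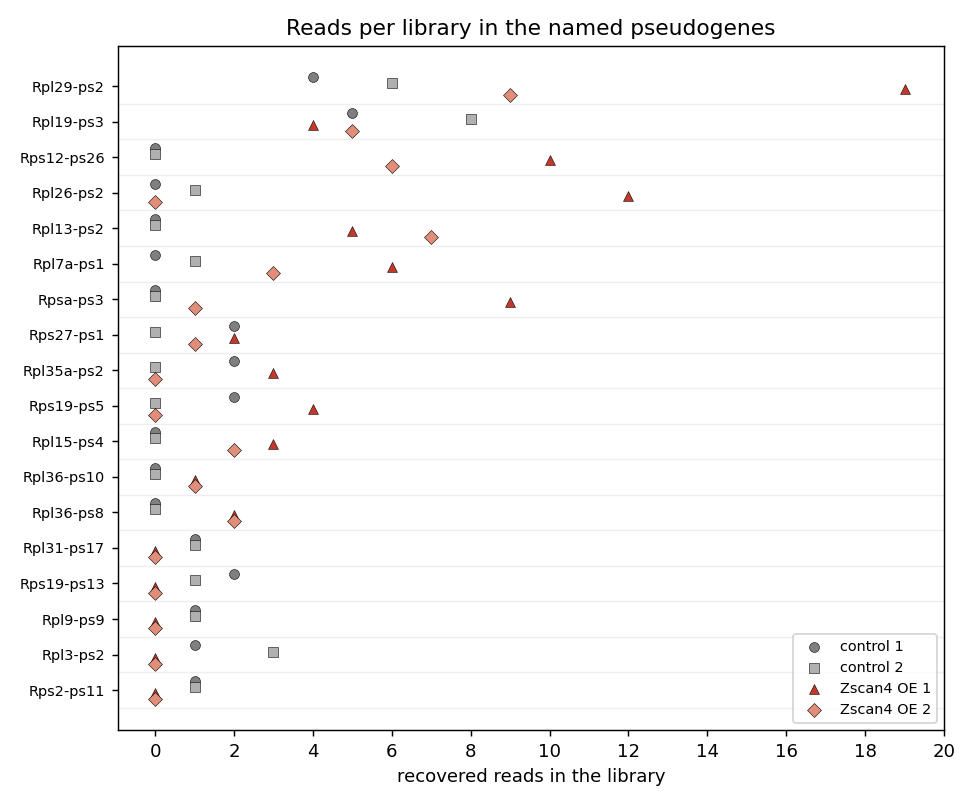
Recovered reads (x axis) in each of the 4 libraries for 18 named pseudogenes (y axis): those with the most reads, the highest levels or the largest statistics in either direction. Rps12-ps26 and Rpl13-ps2 have 5 or more reads in each Zscan4 OE library and 0 in the controls, and the rows at the bottom have at most 3 reads in any library.

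The remaining copies with the largest statistics rested on 2 to 5 reads. Those higher in Zscan4 OE were Rpl36-ps8, with 2 reads in each Zscan4 OE library, Rpl15-ps4 with 3 and 2, and Rpl36-ps10 with 1 in each, and all 3 had 0 in both controls. Rpl36 and Rpl15 are large-subunit genes. The lower ones had 0 reads in both Zscan4 OE libraries. Rpl31-ps17, Rpl9-ps9 and Rps2-ps11 had 1 read in each control, Rps19-ps13 had 2 and 1, and Rpl3-ps2, a copy of a gene for a protein near the peptidyl transferase centre, had 1 and 3. Their log2 differences lay between −4.29 and 4.01, and the limma adjusted p between 0.252 and 0.696. These copies have a group at 0 too, so their log2 differences likewise depend on the pseudocount, with sizes from −1.62 to 1.33 at a pseudocount of 1. A count of 0 allows up to 3 reads in a library, and no copy here had more than 3 in any.

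The copies of one parent form a family. Rpl31 had the most copies, 17, of which 10 were alike in recovered length, at 374 to 379 bases. The others with reads had lengths from 87 to 343 bases. The 17 copies held 27 reads, and 15 copies had 1 to 3 reads each while Rpl31-ps10 and Rpl31-ps23 had none. Reads were found in 4 and 2 of the Rpl31 copies in control 1 and control 2, then in 6 and 11 in Zscan4 OE 1 and 2. Their mean RPKM ranged from 0 to 1.03, the highest being Rpl31-ps25 with 1, 1, 1 and 0 reads. The RefSeq span of Rpl31-ps25 is 41903 bases, against a recovered length of 379. The groups did not overlap in 4 of the 17, 2 with higher values in Zscan4 OE (Rpl31-ps15 and Rpl31-ps18) and 2 with lower ones (Rpl31-ps17 and Rpl31-ps25), where 19.6% and 10.1% of all rows did so. The parent Rpl31 had 2.27 and 1.45 RPKM for the control libraries, against 4.34 and 1.6 for the Zscan4 OE ones, above each copy's 4-library mean.

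Of the 19 families of 5 or more copies, those of Rps19 and Rpl21 were at the ends of the range, and were picked by those values. All 10 copies of Rps19, a small-subunit gene, had reads, with 6, 14, 8 and 8 reads in the 4 libraries and a mean RPKM of 0.871. Of the 12 copies of Rpl21, a large-subunit gene, 4 had no read, and the family had 1, 0, 3 and 4 reads and a mean RPKM of 0.13. Their parents had mean RPKM of 2.44 and 1.36. In both families the parent was above the mean of its copies, as were 50 of 51 parents. Copies of one family share sequence and are not independent, so no test of this difference was made.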

How the data were processed

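ATAC-seq was measured in 2 control and 2 Zscan4 OE libraries. The submitters' processing notes list the build mm10 and the tools Bowtie2, featureCounts and Trimmomatic. For versions, duplicate or multiply mapped reads, any Tn5 shift and the annotation, the sources used here give nothing. The values deposited by the authors are RPKM per the labels, 1 per gene and library.

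Each deposited value equals whole reads over a whole length and a library total, but 8 totals took turns from row to row. The lengths of 2449 short RNA genes revealed them. All 38361 rows with 2 or more values above 0 allowed exactly 1 rotation. Of the copies, 11 had 1 value and allowed several, and the shortest length was kept. Totals were placed on columns in rotation order so that the table's share of reads was most alike (highest over lowest 1.36, next best placement 4.17). Other placements would change the levels per library. limma 3.58.1 in R 4.3.3 (eBayes trend, no covariate) was run on rescaled values. Tested on simulated data, the recovery gave back the rotations of rows with 2 or more values above 0. On simulated reads limma gave back the directions of change, but changed rows did not reach the adjusted threshold, so a count of 0 says little.

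Named copies were the 8 with the most reads, the 6 with the highest mean RPKM, the 5 largest moderated statistics in each direction and all copies of the parent with the most; 1 of them is not reported here. The copies and lists were chosen with earlier results of these data known. Alternatives covered the pseudocount, filter, scaling, replicate block, voom on recovered reads and leaving out each library. Intervals cover counting error only.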

Additional observations from a re-analysis of the deposited data

How the results depend on the processing

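No copy was called with another pseudocount, no filter, 20 reads or more, values as deposited, median centring, quantile normalization, voom or the replicate block, nor without either control. At 20 reads or more and with voom only 2 copies were tested, and 5 and 1 of 19012 rows were called. Leaving out a Zscan4 OE library gave 47 to 52 copies called, all higher (29.6% and 32.7% of copies, 9.05% and 10.6% of all rows), each with 0 reads in both controls. The range without 1 library was thus 0 to 52. Of the alternative values of 10 named differences, 9 passed the threshold, all in these 2 fits, and 0 changed sign. The median log2 difference of copies relative to all rows, 0.98, was 0.19 with a pseudocount of 1, 2.42 with 0.01, 0.15 as deposited and 0.49 with quantile normalization. It was −0.83 at 20 reads or more and −0.79 with voom, where 2 copies remained, and −0.05 to 1.18 without 1 library (lowest without Zscan4 OE 1). The cause was not tested. The ratio of summed reads was 0.879 to 1.43 without 1 library, 1.08 per read in the table and 1.13 with the replicate block. It was 1.23 with reads of 17 copies multiplied towards their span, an alternative chosen after seeing the data. The share of copies below their parent was 50% for the 2 copies with 20 or more reads and 83.9% for the 31 with 5 or more. Deviations from the group means of same-numbered libraries had r = 0.04 across 42989 rows. Many of these rows hold few reads, and counting error makes r small, so it cannot decide whether the libraries are paired. The main fit did not pair them, although summed levels and the share of reads in the table were higher in replicate 1 of both groups. Under the replicate block the copies at an unadjusted p under 0.05 went from 19 to 12.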
